A study of Homo sapiens with 6 samples.

Results

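MACC1, MET and the genes that activate or restrain the MET ligand HGF were described in cells of the HCT116 line, grown from a human colorectal carcinoma and sorted here by the surface glycoprotein CD133. The 9 genes, of 18404 measured, were chosen by their place in the pathway and on the measured difference of MACC1 between the fractions. Their differences between the fractions are therefore given as a description, and nothing is read from how many of them passed a test. The groups were 3 arrays of CD133+ HCT116 cells and 3 arrays of CD133- HCT116 cells, with no treatment named in the labels, and numbered as repetitions 1, 2 and 3 in each fraction. All 6 arrays came from a single cell line, and the labels give neither the purity of the sort nor whether repetitions were separate cultures. P-values thus cover the spread of these arrays alone, which could be technical. Where a gene had several probe sets the one of highest mean signal stood for it, and values are log2 signals made by Robust Multichip Average (RMA). Differences are CD133+ minus CD133-, so 1 unit is a doubling of signal. A lower signal in such sorted bulk RNA can come from fewer cells of a kind or from less RNA per cell, which cannot be told apart.

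HGF is a secreted growth factor made as an inactive single chain. Serine proteases, among them the circulating HGF activator encoded by HGFAC and the membrane protease matriptase encoded by ST14, cut it into the active form, and the Kunitz-type inhibitors encoded by SPINT1 and SPINT2 block those proteases. Active HGF binds the receptor tyrosine kinase MET, which signals through docking proteins such as GAB1, while MST1R encodes the related receptor RON. MACC1 was named for colon cancer metastasis and has been reported to raise transcription of MET.

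The labels were checked first on PROM1, the gene encoding CD133. PROM1 measured 7.59, 7.36 and 7.09 in CD133+ repetitions 1, 2 and 3, against 5.30, 4.46 and 3.97 in CD133- repetitions 1, 2 and 3. Of 9 markers of colorectal epithelium 6 were above the array median, which ran from 5.44 to 5.60, on all 6 arrays. These were the adhesion genes EPCAM and CDH1, the keratin genes KRT8, KRT18 and KRT19 and the intestinal transcription factor gene CDX2. The differentiation markers VIL1 and KRT20 were below it on all 6 arrays, and LGALS4 was above it on 1. Of 8 fibroblast markers 6 were below that median on all arrays, as were 4 of 6 leukocyte and 5 of 5 endothelial markers.

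MACC1 had the largest difference of the 9 genes. Its signal was 6.72, 6.76 and 6.44 in CD133+ repetitions 1, 2 and 3, against 5.64, 5.28 and 4.89 in CD133- repetitions 1, 2 and 3. Every CD133+ array was above every CD133- array, by 1.08, 1.48 and 1.54 within repetitions 1, 2 and 3. The means were 6.64 ± 0.18 in CD133+ and 5.27 ± 0.37 in CD133- cells (SD, n = 3 each), a difference of 1.37 ± 0.25 (SD over the 3 within-repetition differences), or 2.58-fold. In CD133- repetitions 2 and 3 MACC1 lay below the array medians of 5.44 and 5.59. Those levels cannot be told from background, so the fold is a ratio of signals.

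MET itself, the receptor gene that MACC1 is reported to act on, showed a small mean difference. It measured 10.49, 10.31 and 10.38 in CD133+ repetitions 1, 2 and 3, against 10.39, 9.91 and 10.46 in CD133- repetitions 1, 2 and 3. The groups overlapped, and CD133- repetition 2 stood lowest of the 6 arrays. The difference was 0.10 and 0.40 in repetitions 1 and 2 but -0.07 in repetition 3, with a mean of 0.14 ± 0.24 (SD, n = 3 repetitions).

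**Figure D1:**
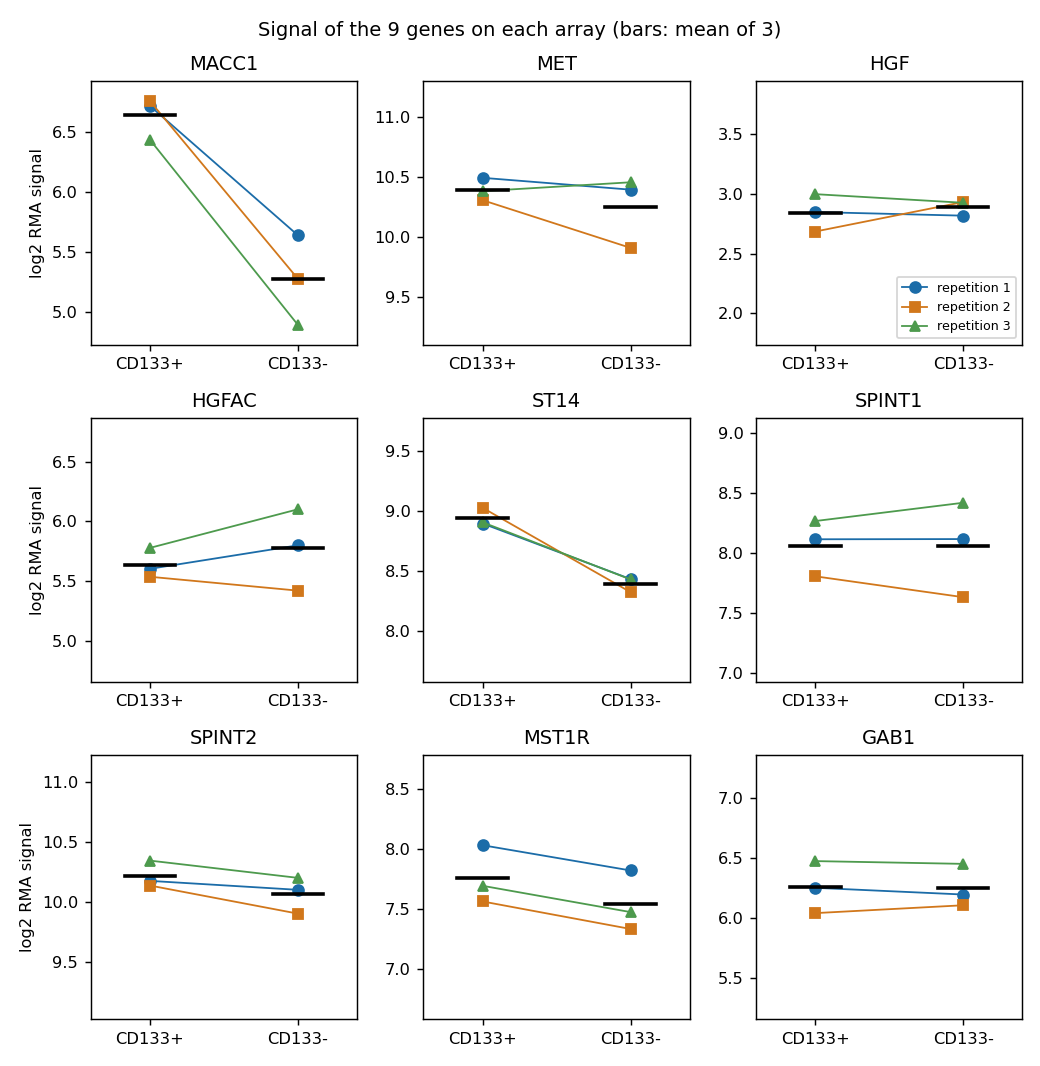
Log2 RMA signal (vertical axis, the same span of 2.2 units in each panel) of the 9 genes in CD133+ (left) and CD133- (right) cells; points are arrays, lines join arrays of a repetition and black bars are means of 3. All CD133+ points lie above all CD133- points for MACC1 and for ST14, and the groups overlap for the other 7 genes.

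The sequence before the transcription start is shown for MACC1 and for the 2 receptor genes, because MACC1 has been reported to act on the MET promoter at GC boxes of the Sp1 type. The 250 bases before the start are given from RefSeq on GRCh38.p14, 5′ to 3′ on the gene's strand: chr7:20217385-20217634 on the minus strand for MACC1, chr7:116671946-116672195 on the plus strand for MET and chr3:49903874-49904123 on the minus strand for MST1R. Capitals mark E-boxes (CANNTG, which reads the same on both strands) in MACC1, the GC box GGGCGG on either strand in MET and MST1R, and in MST1R also the ETS motif CGGAAG. The last 2 GC boxes of MST1R overlap.
MACC1: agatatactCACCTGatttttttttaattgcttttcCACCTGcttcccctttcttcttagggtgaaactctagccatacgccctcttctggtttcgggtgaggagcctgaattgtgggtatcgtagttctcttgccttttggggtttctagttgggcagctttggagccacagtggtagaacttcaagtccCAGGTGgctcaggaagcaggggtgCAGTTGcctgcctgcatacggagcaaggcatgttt
MET: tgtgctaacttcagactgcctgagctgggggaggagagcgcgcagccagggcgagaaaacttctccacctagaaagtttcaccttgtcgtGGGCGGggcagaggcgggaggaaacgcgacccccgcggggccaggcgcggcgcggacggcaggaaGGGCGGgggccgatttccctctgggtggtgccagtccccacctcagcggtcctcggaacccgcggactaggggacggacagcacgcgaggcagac
MST1R: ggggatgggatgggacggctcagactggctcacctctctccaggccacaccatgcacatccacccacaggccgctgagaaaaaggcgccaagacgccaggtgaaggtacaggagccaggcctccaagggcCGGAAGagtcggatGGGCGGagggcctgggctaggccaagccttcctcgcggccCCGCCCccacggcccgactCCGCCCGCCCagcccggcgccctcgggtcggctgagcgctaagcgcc

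The MACC1 window held 4 E-boxes and 0 GC boxes, whereas the MET window held 2 GC boxes and 0 E-boxes. MST1R had 4 GC boxes, 1 ETS motif and 1 E-box. Of 15843 protein-coding promoters of the same length, 56.0% held a GC box on either strand, 57.8% an E-box and 21.7% the ETS motif, while 2.54% held 4 or more E-boxes. In MACC1, 3 of the 4 E-boxes read CACCTG or its reverse complement CAGGTG, a count reached by 0.442% of promoters; this form was chosen after the sequence was seen. The MACC1 window was 49.2% G or C, against a median of 62.4% over all promoters, and the MET and MST1R windows were 68.4% and 70.8%. The AP-1 motif TGANTCA and the TATA box TATAAA, searched on both strands, matched 0 of the 6 members with a listed promoter, against 5.04% and 9.23% of promoters. The other listed members were HGF, HGFAC and SPINT1, of which HGFAC had 3 E-boxes, 2 of them in the CACCTG or CAGGTG form, SPINT1 had 3 GC boxes and HGF had neither motif. These letter matches are descriptions and show no binding.

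On the activation side of the pathway, ST14 was the second gene whose fractions did not overlap. ST14 measured 8.89, 9.03 and 8.90 in CD133+ repetitions 1, 2 and 3, against 8.43, 8.32 and 8.43 in CD133- repetitions 1, 2 and 3. Within each fraction its 3 arrays lay close together, and the difference was 0.55 ± 0.13 (SD, n = 3 repetitions), or 1.46-fold. Groups that did not overlap with CD133+ higher were counted in 2 of the 9 genes, against 3.43% of all genes, a comparison from which nothing is read because the choice of genes used these values.

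The ligand and its circulating activator did not separate by fraction. HGF gave 2.85, 2.68 and 3.00 in CD133+ repetitions 1, 2 and 3, against 2.82, 2.93 and 2.92 in CD133- repetitions 1, 2 and 3. The groups overlapped, all 6 values lay below the array medians, and no detection call came with the values, so a level cannot be told from background. HGFAC gave 5.60, 5.54 and 5.78 in CD133+ repetitions 1, 2 and 3, against 5.80, 5.42 and 6.10 in CD133- repetitions 1, 2 and 3. HGFAC was thus close to the array medians, its groups overlapped, and its differences changed sign between repetitions, at -0.20, 0.12 and -0.32.

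The 2 protease inhibitor genes differed little between the fractions. SPINT1 measured 8.11, 7.80 and 8.27 in CD133+ repetitions 1, 2 and 3, against 8.11, 7.63 and 8.42 in CD133- repetitions 1, 2 and 3. Its mean difference was 0.01 ± 0.16 (SD, n = 3 repetitions), with repetition 2 the lowest in both fractions. SPINT2 measured 10.17, 10.14 and 10.34 in CD133+ repetitions 1, 2 and 3, against 10.10, 9.90 and 10.20 in CD133- repetitions 1, 2 and 3. The SPINT2 groups overlapped, but each CD133+ array was above its partner, by 0.07, 0.23 and 0.14. Beside these, the protease gene ST14 had the larger difference of 0.55 that was given above.

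MST1R, the gene of the related receptor, had a small difference that was nearly constant. MST1R measured 8.03, 7.56 and 7.69 in CD133+ repetitions 1, 2 and 3, against 7.82, 7.33 and 7.47 in CD133- repetitions 1, 2 and 3. The groups overlapped because repetition 1 was high in both fractions. Within repetitions the differences were 0.21, 0.23 and 0.22, a mean of 0.22 ± 0.0095 (SD, n = 3 repetitions) or 1.16-fold.

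GAB1, the docking protein of MET, had 2 probe sets that gave different pictures. The one with the higher mean measured 6.25, 6.04 and 6.47 in CD133+ repetitions 1, 2 and 3, against 6.20, 6.11 and 6.45 in CD133- repetitions 1, 2 and 3. Its mean difference was 0.0045 ± 0.063 (SD, n = 3 repetitions), yet the annotation ties it to a single cDNA and 0 RefSeq mRNAs. The other, tied to 2 RefSeq mRNAs, measured 5.22, 4.87 and 5.48 in CD133+ repetitions 1, 2 and 3, against 6.01, 4.69 and 5.93 in CD133- repetitions 1, 2 and 3. There the differences were -0.78, 0.18 and -0.45, so CD133+ was the lower fraction in repetitions 1 and 3 only. The value for GAB1 thus depends on which probe set stands for the gene.

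**Figure D2:**
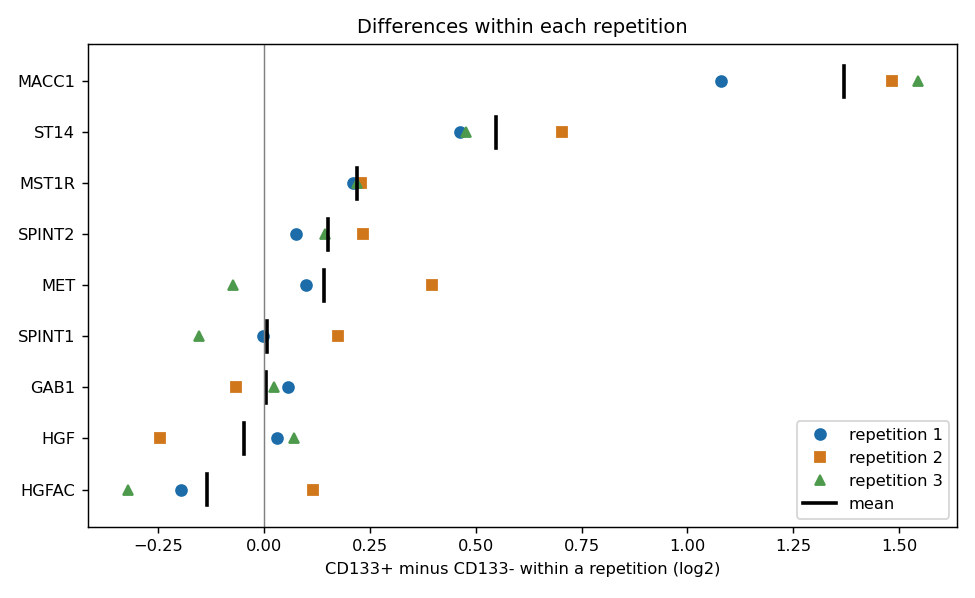
Difference in log2 signal, CD133+ minus CD133-, within repetitions 1, 2 and 3 (coloured points) for each of the 9 genes, with the mean as a black bar. MACC1 and ST14 lie clear of 0 in every repetition, MST1R and SPINT2 lie slightly above 0 in every repetition, and the other 5 genes have points on both sides.

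Across the 9 genes, 7 mean differences were above 0 and 2 below, with a median of 0.14 against -0.0064 over all genes. In 4 genes all 3 repetitions were higher in CD133+ cells (17.7% of all genes) and in 0 genes all 3 were lower (18.4% of all genes). With limma and group as the only term, 0 of the 9 genes and 0.00543% of all genes passed an adjusted p of 0.05. With the repetition number as a block, 1 of the 9 genes passed, against 0.196% of all genes passing as higher and 0.174% as lower. Nothing is read from these member counts, since the contrast was known when the genes were chosen.

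The levels of the repetitions were tested as well, though not independently of that choice. The repetition number paired the arrays in the differences known at the choice, and the F test uses the spread of those differences. The question was whether arrays carrying the same number share a level once fraction is accounted for. SPINT1 and MST1R passed the moderated F test of limma with an adjusted p of 0.0392 and 0.0452 over all probe sets. That is 2 of 9 genes, against 15.3% of all genes. SPINT1 averaged 8.11, 7.72 and 8.34 over both fractions in repetitions 1, 2 and 3, and MST1R averaged 7.92, 7.45 and 7.58. Both calls ended when any 1 of the 6 arrays was left out and when the leading rows without annotation were included. After centring on array medians the SPINT1 call ended too (limma adjusted p = 0.0652), while MST1R kept its call and MACC1 passed (0.0463 and 0.0452). SPINT1 passed in 3 of 11 alternatives and MST1R in 4, with an adjusted p from 0.00732 to 0.173 for SPINT1 and from 0.0101 to 0.168 for MST1R.

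ST14 stood at the other end, with repetition means of 8.66, 8.67 and 8.67 (F = 0.0053, limma adjusted p = 0.996, and 0.501 to 0.996 over the alternatives). MACC1 averaged 6.18, 6.02 and 5.67 and did not pass (limma adjusted p = 0.0921, range 0.0305 to 0.350). MET averaged 10.44, 10.11 and 10.42 and did not pass either (limma adjusted p = 0.190, range 0.0857 to 0.760). Repetition 2 had the lowest mean in 7 of the 9 genes, MACC1 being lowest in repetition 3 and ST14 in repetition 1, while 42.1% of all genes were lowest in repetition 2.

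Split by source, repetition accounted for more of the variance over the 6 arrays than fraction in 7 of the 9 genes. Repetition has more levels than fraction and by that alone tends to take the larger share. The same count over all genes was not taken. In ST14 fraction took 96.1% of the variance and repetition 0.027%, and in MACC1 fraction took 89.2% and repetition 8.80%. In MET repetition took 61.8% and fraction 13.1%, and in SPINT1 and GAB1 repetition took 93.7% and 97.5%. The GAB1 share is for its probe set of higher mean, and the other probe set was not split. The median shares over the 9 genes were 61.8% for repetition and 13.1% for fraction, beside 67.8% and 8.21% over all genes. These shares describe the arrays, and the fraction part was known when the genes were chosen.

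**Figure D3:**
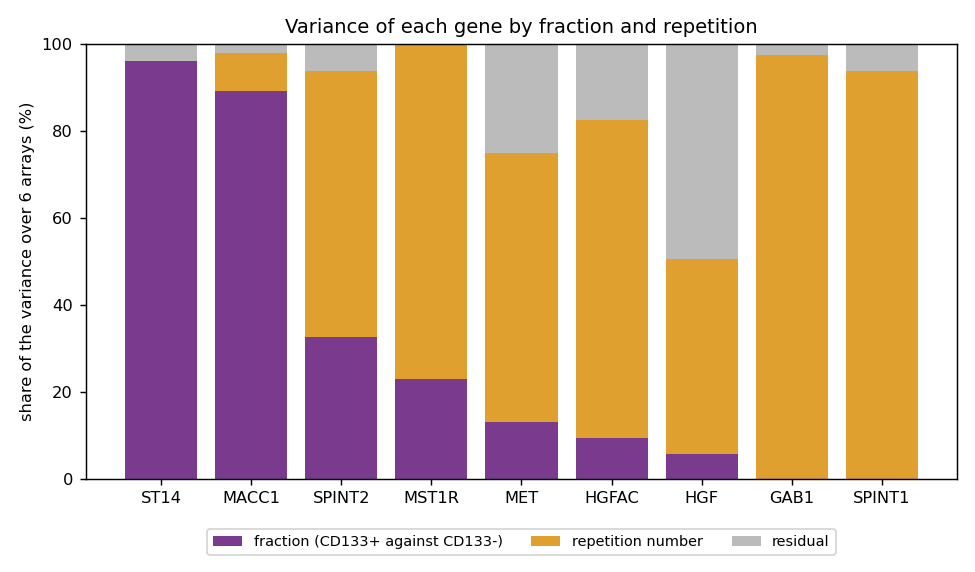
Share of each gene's variance over the 6 arrays (vertical axis, percent, from 0 to 100) taken by fraction, by repetition number and by the residual. Fraction takes 96.1% in ST14 and 89.2% in MACC1, and repetition takes the largest share in SPINT2, MST1R, MET, HGFAC, GAB1 and SPINT1. GAB1 is shown by its probe set of higher mean.

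PROM1 itself was among the genes whose array pattern was closest to that of MACC1. Among 11249 genes with a mean signal above the median, the 5 with the highest Pearson r to MACC1 over the 6 arrays were PROM1 (r = 0.995), the Wnt receptor gene FZD3 (0.995), the kinase gene MAP3K5 (0.995), the membrane protein gene TMC5 (0.993) and ARHGAP18 (0.991). The arrays form 2 clusters by fraction, so that r mostly carries the gap between fractions. Within the CD133- arrays MACC1 and PROM1 were both highest in repetition 1 and lowest in repetition 3. Within the CD133+ arrays both were lowest in repetition 3, but PROM1 was highest in repetition 1 and MACC1 in repetition 2. Their within-repetition differences had the same order, 1.08, 1.48 and 1.54 for MACC1 beside 2.29, 2.90 and 3.12 for PROM1. The part of residual CD133-positive cells in these levels was not tested. Of the other 8 genes ST14 had the highest r with MACC1 (0.937), MST1R had 0.591, MET 0.310 and SPINT1 -0.149.

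**Figure D4:**
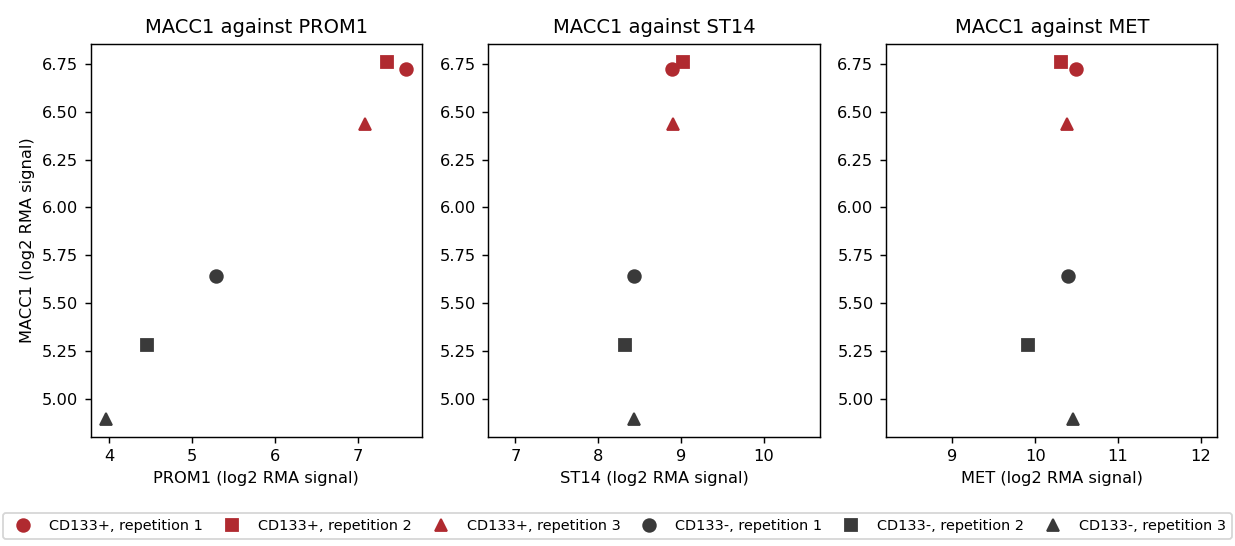
MACC1 signal (vertical axis, log2) against PROM1, ST14 and MET (horizontal axes, log2, the same span of 4 units in each panel) on the 6 arrays, CD133+ in red and CD133- in grey, with a marker for each repetition. The fractions separate on both axes for PROM1 and ST14, and only on the MACC1 axis for MET.

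The nearest measured genes beside MACC1 and MET on chromosome 7 did not share one direction. Beside MACC1, TMEM196 measured 3.90 ± 0.066 in CD133+ and 3.97 ± 0.076 in CD133- cells (SD, n = 3 each), with a difference of -0.07. TMEM196 lay below the array median on every array, so its level cannot be told from background. ITGB8, an integrin subunit gene on the other side, measured 4.79, 5.35 and 5.96 in CD133+ repetitions 1, 2 and 3, against 5.65, 6.02 and 7.12 in CD133- repetitions 1, 2 and 3. The ITGB8 groups overlapped, and its difference was -0.90 (SE 0.41 in the fit without the block). That difference passed only with the repetition block (limma adjusted p = 0.0455, and 1.00 without the block). The ITGB8 call ended without repetition 1, 2 or 3 (limma adjusted p with the block = 0.104, 0.0796 and 0.204). Beside MET, CAV1, the gene of the membrane scaffold caveolin, measured 9.72 ± 0.18 in CD133+ and 9.01 ± 0.033 in CD133- cells (SD, n = 3 each). The CAV1 difference of 0.71 (SE 0.12) passed in neither fit (limma adjusted p = 0.341 and 0.0566 with the block), and CAPZA2, which encodes an actin-capping subunit, had a difference of 0.16.

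Beyond the 9 genes, 8 lists of the same pathway gave 130 measured genes, 48 with a difference above 0 and 82 below, a median of -0.04. With limma and group as the only term 0 of the 130 passed over all probe sets, and 11 (8.46%) had an unadjusted p under 0.05, against 3.47% of all genes. With the repetition block PIK3R3 passed, and 30 (23.1%) had an unadjusted p under 0.05, against 11.6% of all genes. The lists were written with earlier results of this contrast known, the difference of PIK3R3 among them, so these shares are no independent evidence and nothing is read from their distance to all genes.

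PIK3R3, a regulatory subunit of the phosphoinositide 3-kinase that MET recruits, was lower in CD133+ cells. It measured 4.98 ± 0.17 in CD133+ and 5.98 ± 0.084 in CD133- cells (SD, n = 3 each), lower in 3 of 3 repetitions with a mean difference of -0.999 (SE 0.12; limma adjusted p = 0.0338 with the block and 0.142 without it). That difference was known when the list was written, so the p-values describe the gene and support nothing. The call ended without repetition 2 (adjusted p = 0.107) and without repetition 3 (0.212), and held without repetition 1 (0.0318). PIK3R3 was above the array median on 3 arrays, all of CD133- cells. Its level in CD133+ cells thus cannot be told from background. Of the 25 MET adaptors and effector kinases 19 were below 0, with a median of -0.10.

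In the lists with 0 members passing, the 2 genes of smallest p are given with their differences. Among 12 further HGF-activating and matriptase-network proteases, 5 higher and 7 lower, PLAU, the urokinase gene, had 0.41 (SE 0.18) and the thrombin gene F2 had -0.22 (SE 0.11). F2 lay below the array medians on all 6 arrays, so its level cannot be told from background. Among 11 serpin and Kunitz inhibitors, 4 higher and 7 lower, TFPI, a Kunitz inhibitor of coagulation, had 0.75 (SE 0.20) and the serpin gene SERPINE2 had -0.47 (SE 0.11). All 3 genes in the list of plasminogen-related genes had a mean difference below 0, with no shared pattern. MST1, the ligand gene of MST1R, had -0.27 (SE 0.28), at -0.07, -0.70 and -0.04 in repetitions 1, 2 and 3. LPA had -0.03 (SE 0.14), and its sign differed between repetitions, as did that of the remaining gene. LPA lay below the array medians on all 6 arrays.

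Of 19 genes that down-regulate MET signalling, 7 were higher and 12 lower. SPRY2, a feedback inhibitor of receptor tyrosine kinase signalling, had -0.74 (SE 0.14), with a limma adjusted p of 0.450, or 0.0608 with the block, and LRIG1, another such inhibitor, had 0.26 (SE 0.11). Of 20 genes listed as MET co-receptors and partner proteins, 10 were higher and 10 lower. Among them the receptor kinase gene AXL had -0.39 (SE 0.19) and the hyaluronan receptor gene CD44 had -0.25 (SE 0.16). Of 15 genes in the list of MET and MACC1 promoter factors, 6 were higher and 9 lower, with the transcription factor gene ETS1 at -0.70 (SE 0.24) and SH3BP4, the paralogue of MACC1, at -0.48 (SE 0.17). SH3BP4 thus lay opposite to MACC1 in all 3 repetitions, at -0.54, -0.33 and -0.58, without passing (limma adjusted p = 1.00, or 0.126 with the block). Of 25 HGF response genes 10 were higher and 15 lower, with the ligand gene EREG at 0.76 (SE 0.30) and the integrin gene ITGA2 at 0.53 (SE 0.18).

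**Figure D5:**
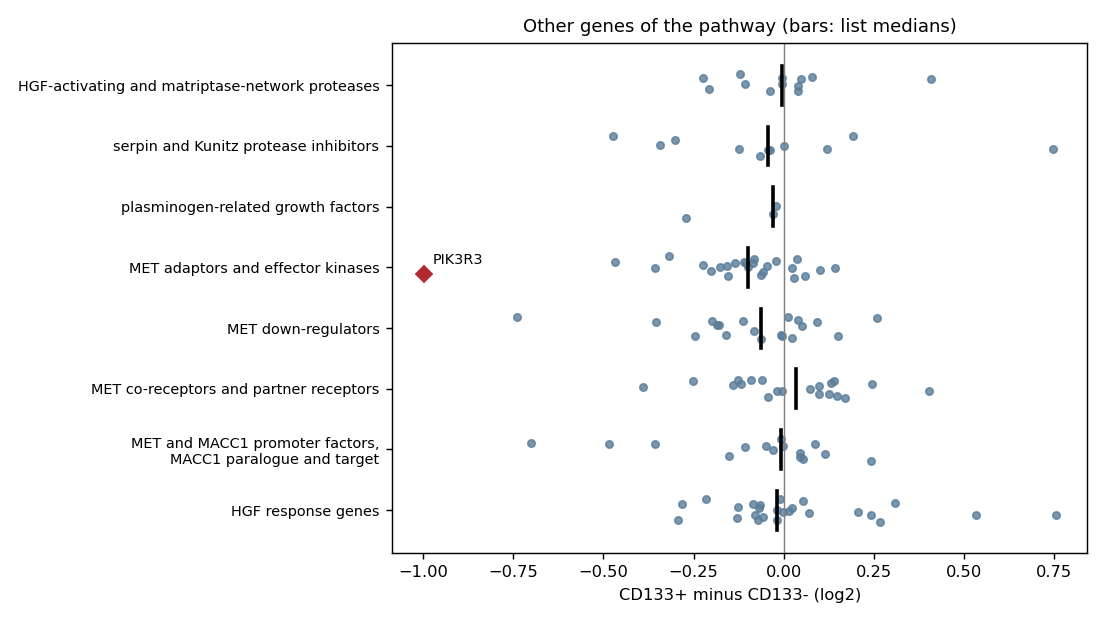
Difference in log2 signal, CD133+ minus CD133- (horizontal axis), of the 130 other genes of the pathway in 8 lists; each point is a gene, black bars are list medians and the red diamond marks a gene passing with the repetition block. PIK3R3 at -0.999 is the one diamond, and the list medians lie between -0.10 and 0.03.

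In the repetition test 24 of the 130 genes (18.5%) passed, beside the 15.3% of all genes. HGF response genes held 9 of these, including PLAUR, the urokinase receptor gene, at 8.21, 7.36 and 7.61 in repetitions 1, 2 and 3. PRSS8, the gene of prostasin, a protease that acts together with matriptase, averaged 7.51, 6.67 and 7.76, lowest in repetition 2 as SPINT1 was (limma adjusted p = 0.0167).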

How the data were processed

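Total RNA of sorted HCT116 cells was labelled with biotin and put on Affymetrix arrays, per the labels. The deposited values are log2 signals that the authors made with RMA, per the submitters' processing notes; their range shows the log2 scale, and the sources used here give no RMA version. A U133 array is named in the design text, but the rows match a whole-transcript Gene ST annotation, and that was used.

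Of 32321 rows, 4091 leading rows whose identifiers precede the first annotated one were left out, and 28230 probe sets were tested. Of these 19158 had 1 gene symbol, 1388 had several and 7684 had none here. Each of 18404 genes took its probe set of highest mean. The number of arrays limits the precision. Fits used limma 3.58.1 in R 4.3.3 (lmFit, eBayes), with Benjamini-Hochberg adjustment over all probe sets at 0.05, and were tested on simulated data. The contrast had group as the only term, with repetition as a block as an alternative. Each SE is from the fit with group as the only term unless the block is named. The repetition test was the moderated F of the repetition terms beside fraction. Once group means were subtracted, the 2 arrays of a number correlated at 0.447 to 0.616 over probe sets, above 0.1 in all 3 pairs. The pairing hence comes from the data, as no label names a shared culture or day.

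Members and lists were chosen with earlier results of these data known, among them the differences of MACC1 and PIK3R3. Genes named beyond the members were PROM1 as the check of the labels, all 9 epithelial markers, and list genes passing with or without the block, or the 2 of smallest unadjusted p where none passed. Also named were the nearest measured gene on each side of MACC1 and MET in RefSeq order, and the 5 closest to MACC1 by Pearson r. Values of SH3BP4, PLAUR, PRSS8, MST1 and PIK3R3 beyond this were chosen after they were seen. Promoters of 6 members matched by symbol. Alternatives were the block, other normalizations, filters, prior and left-out arrays.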

Additional observations from a re-analysis of the deposited data

How the results depend on the processing

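Differences of MACC1 and ST14 stayed within the spread of their repetitions under the 11 alternatives run for each, from 1.18 to 1.55 and from 0.47 to 0.59, as did those of MET, HGF and HGFAC, which changed sign in some of them. Over single arrays left out, the difference ran from -0.21 to 0.19 for SPINT1, from 0.068 to 0.22 for SPINT2, from 0.085 to 0.36 for MST1R and from -0.10 to 0.11 for GAB1; a left-out array unbalances the repetitions. MST1R had 0.21 after repeated quantile normalization, and GAB1 had -0.17 with the mean of its 2 probe sets. With limma, 1 of 28230 probe sets passed in the fit without repetition and 84 with the repetition block. That became 43, 18 and 0 with the block without repetitions 1, 2 and 3 (2276 at an unadjusted p under 0.05 in the last), settings added after the data were seen. It was 0 with quantile normalization repeated, with arrays centred on their medians and with the leading rows included (1102, 906 and 1036 unadjusted), and 0 to 2 over single arrays left out (721 to 1571 unadjusted). Of the other pathway genes 1 passed with the block and 1 with the block without repetition 1, against 0 under the 14 other alternatives. The repetition F test passed 3680 probe sets, 69 with the leading rows included, 6791 with the filter on dim probe sets, 6335 with trend and robust, and 63 to 2351 over single arrays left out. Of the 9 genes 2 passed it, 0 with the leading rows included (4 unadjusted), 5 with the filter on dim probe sets, and 0 with any single array left out (2 to 5 unadjusted). The causes were not tested.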
